A study of Mus musculus with 24 samples.

Results

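The 10 genes described here encode ligands, receptors and Smads of the TGF-beta pathway in NIH3T3, a fibroblast line derived from mouse embryos. They are the ligands Tgfb1, Tgfb2 and Tgfb3, the receptors Tgfbr1, Tgfbr2 and Acvr2a, and the signal carriers Smad2, Smad3, Smad4 and Smad7. They were chosen by symbol. All 10 were among the 13534 genes of the whole-cell table and among the 11568 genes of the table of cell fractions, and all 10 passed the filter on low counts.

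TGF-beta ligands bind TGFBR2, which recruits and phosphorylates TGFBR1. TGFBR1 then phosphorylates SMAD2 and SMAD3, which join SMAD4 and enter the nucleus to regulate transcription, and SMAD7 is induced by the pathway and holds the receptors back. ACVR2A is a type II receptor of the same superfamily that binds activins and some bone morphogenetic proteins. In fibroblasts the pathway is best known for driving collagen production, and miR-29 is a family of small RNAs known for repressing collagen genes.

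A microRNA finds its targets mainly through its seed, bases 2 to 8. The 3 mature miR-29 sequences of the mouse are shown because any mRNA recovered through the seed of miR-29b would offer the same match to all of them. Capitals mark the seed, which was identical in all 3, and the sequences are those of RefSeq for GRCm38.p6.
mmu-miR-29a-3p: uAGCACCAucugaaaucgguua
mmu-miR-29b-3p: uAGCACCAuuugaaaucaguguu
mmu-miR-29c-3p: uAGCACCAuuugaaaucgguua
The mature miR-29b-3p is encoded at 2 places, chr6:31063025-31063047 on the minus strand (Mir29b-1) and chr1:195037091-195037113 on the plus strand (Mir29b-2).

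Cells received either a miR-29b mimic or a scrambled mimic at 10 nM. Both mimics carried 3-cyanovinylcarbazole, a nucleoside that light can crosslink to the opposite strand, so that RNA bound to a mimic can be pulled down with it. Medium was added after 24 h and cells were harvested 8 h later. Sequencing covered 4 libraries each of the miR-29b pulldown, the scrambled pulldown, the miR-29b input and the scrambled input from whole cells. It also covered 1 library of each of these from the cytoplasmic and from the nuclear fraction. All libraries came from this 1 line, and no label gives a cell without a mimic or a change to a gene. The labels do not say whether replicates were separate cultures; p-values measure only the spread between these libraries, which may be technical.

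Whole-cell libraries held between 7409157 (scrambled pulldown replicate 1) and 55153996 (miR-29b input replicate 4) listed counts. The labels give 6 ng of RNA for miR-29b input replicate 4 and 5 ng for every other library. In the table headers the word lysed stands for replicates 1 to 3 and the word intact for replicate 4, which leaves 1 library per group for the second procedure. Replicate 4 of the miR-29b input stood apart. Of the 567 genes that the authors' table marks as hits, 406 (71.6%) were over 2-fold above replicate 4 of the scrambled input. Of 12348 other genes, 365 (2.96%) were. Between the means of replicates 1 to 3, 1 of 567 hits (0.176%) and 8 of the other genes (0.0648%) were over 2-fold higher. A single library was thus set beside means of 3. Among genes with at least 100 counts in each of replicates 1 to 3, replicates 1 and 2 of the miR-29b pulldown were over 2-fold apart in 481, and replicate 3 took a value between them in 480 of these. The same counts were 698 of 730 in the scrambled pulldown, 9 of 16 in the miR-29b input and 71 of 74 in the scrambled input. Whether replicate 3 was independent of replicates 1 and 2 was not tested. If it was not, p-values of fits that include it would be too small, most of all in fits of replicates 1 to 3 alone. Results are therefore also given without these libraries where it matters. All 7 fibroblast markers were measured, with summed levels of 11227 to 18865 CPM (counts scaled to library size) in the miR-29b pulldown and 4269 to 7062 CPM in the other groups. The higher sum did not hold for each marker. From scrambled to miR-29b pulldown their log2 changes ran from −1.31 to 3.74, with a median of −0.244. No more than 2 of 4 muscle, 1 of 4 epithelial, 1 of 3 leukocyte and 0 of 3 endothelial markers were listed, with sums of at most 5.59 CPM per list and library.

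Recovery with the miR-29b mimic differed between genes of the pathway. Acvr2a, Smad7, Tgfb2 and Smad4 rose, Tgfbr2 fell, and the remaining 5 genes did not pass the test. The test divided pulldown by input for each mimic and compared the 2 ratios, miR-29b over scrambled, in edgeR's quasi-likelihood test over 12915 genes with a Benjamini-Hochberg adjusted p under 0.05. Thus 4 of 10 genes were higher, where 17.0% of all genes tested were, and 1 of 10 was lower, where 9.21% of all genes were. The median log2 change of the 10 genes was 0.39, beside −0.10 for all genes. Upper-quartile factors moved the median of all genes to −0.39 and split all genes into 1662 higher and 2400 lower, against 2192 and 1190 with TMM factors, and the authors' library totals moved it to 0.21, with 2464 higher and 285 lower.

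Set directly against each other, the miR-29b and scrambled pulldowns differed in 8 of the 10 genes. Acvr2a, Smad7, Tgfb2, Smad4 and Smad3 rose, 5 of 10 beside 24.5% of all genes, and Tgfb1, Tgfbr2 and Smad2 fell, 3 of 10 beside 20.9%. The 4 miR-29b libraries lay above all 4 scrambled ones for 4 genes (Tgfb2, Smad4, Smad7 and Acvr2a), as for 22.8% of all genes, and below them for 3 (Tgfb1, Tgfb3 and Tgfbr2), as for 21.1%. This comparison and the one corrected for input share their pulldown libraries and are not independent.

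**Figure D1:**
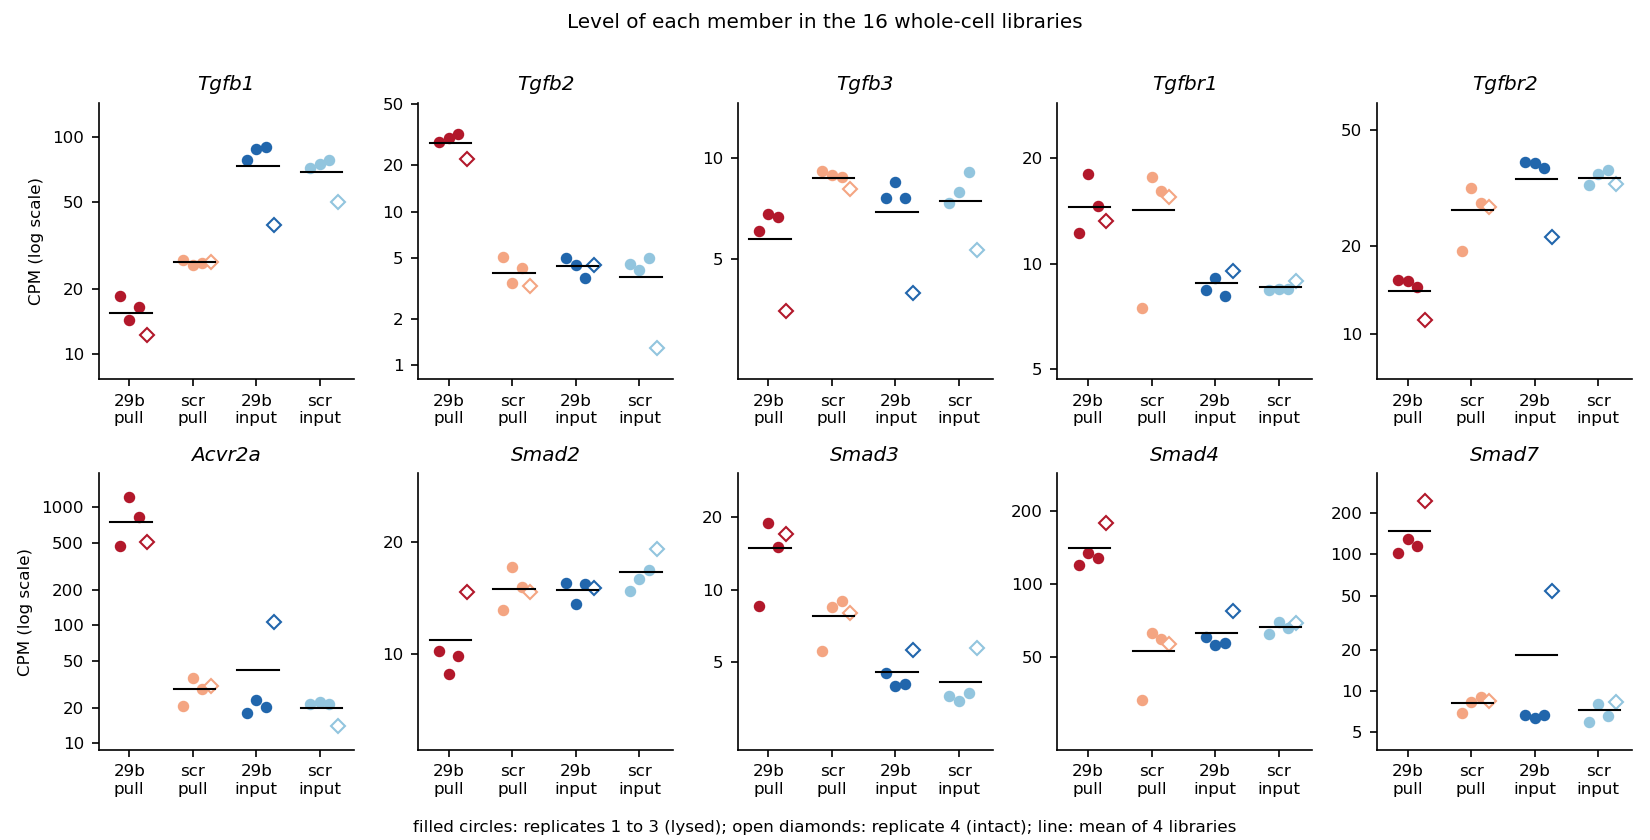
Level of each of the 10 genes in the 16 whole-cell libraries, in CPM after TMM scaling on a log axis that differs between panels, with miR-29b pulldown, scrambled pulldown, miR-29b input and scrambled input in that order; circles are replicates 1 to 3, open diamonds replicate 4, and lines the mean of 4 libraries. The miR-29b pulldown of Acvr2a sits at 472 to 1206 CPM, above every other library, and replicate 4 of the miR-29b input of Acvr2a and Smad7 sits at 106 and 54.1 CPM, above all other inputs.

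Of the ligands, Tgfb2 alone was recovered more with miR-29b. Tgfb2 (ENSMUSG00000039239; chromosome 1, bases 186622787 to 186709697, GRCm38) encodes TGF-beta 2. Its level was 28.3, 30.1, 31.9 and 22.1 CPM in replicates 1 to 4 of the miR-29b pulldown, against 5.045, 3.426, 4.32 and 3.25 CPM in the scrambled pulldown. The inputs held 4.96, 4.51, 3.71 and 4.52 CPM with miR-29b and 4.545, 4.153, 5.009 and 1.30 CPM with the scrambled mimic. The pulldowns were thus far apart, while the inputs overlapped and the scrambled pulldown stayed near its own input, at 1.07 times its mean. Tgfb2 rose 6.02-fold in the mimic-specific comparison (log2 2.59 ± 0.43 SE, n = 4 per group, edgeR adjusted p = 0.000367) and 7.11-fold between pulldowns (log2 2.83 ± 0.31 SE, edgeR adjusted p = 3.07e-06). With 10 libraries (all but every replicate 3, the miR-29b input replicate 4 and the scrambled pulldown replicate 4), the mimic-specific value was 2.17 and did not pass (edgeR adjusted p = 0.0564). No irregularity is described above for the scrambled pulldown replicate 4.

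Tgfb1 (ENSMUSG00000002603; chromosome 7, bases 25687002 to 25705077, GRCm38), the gene of TGF-beta 1, went the other way. It had 18.6, 14.4, 16.5 and 12.3 CPM in the miR-29b pulldown, against 27.27, 25.78, 26.25 and 26.47 CPM in the scrambled pulldown. Both pulldowns lay below their inputs, which held 78.0, 87.95, 89.59 and 39.33 CPM with miR-29b and 71.95, 75.26, 78.32 and 50.03 CPM with the scrambled mimic. Tgfb1 mRNA was thus depleted in both pulldowns, to 0.209 of the input mean with miR-29b and to 0.384 with the scrambled mimic. Between pulldowns it fell 1.71-fold (log2 −0.78 ± 0.23 SE, edgeR adjusted p = 0.0104), a call that ended with the authors' library totals (edgeR adjusted p = 0.197) and with replicates 1, 2 and 4 (edgeR adjusted p = 0.0529). The mimic-specific log2 value was −0.87 ± 0.32 (SE, edgeR adjusted p = 0.0533). It passed under 6 of 10 other settings: RLE factors, upper-quartile factors, DESeq2 and a filter of 2 CPM in 4 libraries (adjusted p = 0.0424, 0.00997, 0.027 and 0.0279), replicates 1 to 3 (log2 −0.85, edgeR adjusted p = 0.000517) and the replicate number as a block (log2 −0.88, edgeR adjusted p = 0.0132). It also passed when replicate 4 of the miR-29b input was left out (log2 −1.03, edgeR adjusted p = 0.00130) and when replicate 1 of the miR-29b pulldown was (log2 −0.97, edgeR adjusted p = 0.0445).

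Tgfb3 (ENSMUSG00000021253; chromosome 12, bases 86056743 to 86079041, GRCm38), the gene of TGF-beta 3, had 6.08, 6.80, 6.66 and 3.51 CPM in the miR-29b pulldown, against 9.14, 8.89, 8.76 and 8.11 CPM in the scrambled pulldown. These libraries did not overlap. Inputs spanned 3.98 to 8.48 CPM with miR-29b and 5.34 to 9.12 CPM with the scrambled mimic, with replicate 4 lowest in both. The mimic-specific log2 value was −0.49 ± 0.35 (SE, edgeR adjusted p = 0.339; 95% interval −1.24 to 0.26). The value between pulldowns was −0.60 ± 0.25 (SE, edgeR adjusted p = 0.0635), just above the threshold. It passed under 7 of 11 other settings, with log2 values of −0.44 (replicates 1 to 3) to −0.90 (upper-quartile factors) and an adjusted p of up to 0.0474, the others being RLE factors, DESeq2, the filter of 2 CPM, the replicate block and a fit of the compared groups alone. It also passed without replicate 4 of the miR-29b input (log2 −0.57, edgeR adjusted p = 0.0263).

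Among the receptors, Acvr2a rose most of the 10 genes. Acvr2a (ENSMUSG00000052155; chromosome 2, bases 48814109 to 48903264, GRCm38) encodes the activin type IIA receptor. The miR-29b pulldown held 472, 1206, 828 and 501 CPM, against 20.9, 35.7, 28.6 and 30.5 CPM in the scrambled pulldown. Inputs held 18.1, 23.1, 20.4 and 106 CPM with miR-29b and 21.5, 22.3, 21.7 and 14.1 CPM with the scrambled mimic. Every miR-29b pulldown library stood above every other library, and in the inputs replicate 4 with miR-29b was 4.6 times the highest of the other 7.

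Acvr2a rose 12.3-fold in the mimic-specific comparison (log2 3.62 ± 0.71 SE, edgeR adjusted p = 0.00142), which placed it at rank 48 of 12915 genes. Between pulldowns it rose 25.9-fold (log2 4.70 ± 0.57 SE, edgeR adjusted p = 6.79e-06), at rank 23. With the miR-29b input replicate 4 left out, the mimic-specific change was 26.3-fold (log2 4.72, edgeR adjusted p = 5.3e-07), and within replicates 1 to 3 it was 31.8-fold (log2 4.99, edgeR adjusted p = 1.74e-06). The ratio of the pulldown to the input with miR-29b was 40.7 between the means of replicates 1 to 3 and 4.72 in replicate 4, while the ratio with the scrambled mimic was 1.30 between the means of replicates 1 to 3. Between the pulldowns of equal number, miR-29b over scrambled was 22.6, 33.8 and 28.9 in replicates 1 to 3 and 16.4 in replicate 4.

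Tgfbr2 was the only gene of the 10 that fell in the mimic-specific comparison. Tgfbr2 (ENSMUSG00000032440; chromosome 9, bases 116087695 to 116175363, GRCm38) encodes the type II receptor that binds TGF-beta first. It had 15.3, 15.2, 14.6 and 11.2 CPM in the miR-29b pulldown, against 19.36, 31.65, 28.15 and 27.35 CPM in the scrambled pulldown. Inputs held 38.8, 38.8, 37.1 and 21.6 CPM with miR-29b and 32.4, 35.4, 36.5 and 32.7 CPM with the scrambled mimic. Its mRNA was below input in both pulldowns, and the miR-29b libraries lay under all scrambled ones. Tgfbr2 fell by 0.92 ± 0.27 on the log2 scale (SE, edgeR adjusted p = 0.0202) and, between pulldowns, by 0.93 ± 0.19 (SE, edgeR adjusted p = 0.00102). With the authors' library totals neither value passed (log2 −0.66 and −0.65, edgeR adjusted p = 0.27 and 0.0739), and the mimic-specific call also ended with replicates 1, 2 and 4 and with the 10 libraries (log2 −0.90 and −1.09, edgeR adjusted p = 0.158 and 0.0892).

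Tgfbr1 (ENSMUSG00000007613; chromosome 4, bases 47353222 to 47414926, GRCm38) encodes the type I receptor kinase. It had 12.21, 17.98, 14.64 and 13.27 CPM in the miR-29b pulldown, against 7.50, 17.7, 16.1 and 15.5 CPM in the scrambled pulldown. Inputs lay between 8.12 and 9.54 CPM with miR-29b and between 8.44 and 8.91 CPM with the scrambled mimic. Both pulldowns averaged 1.65 times their inputs, and they overlapped. The mimic-specific log2 value was −0.02 ± 0.29 (SE, edgeR adjusted p = 0.973), with a 95% interval of −0.63 to 0.60, so that a difference of up to that size in either direction was not resolved.

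**Figure D2:**
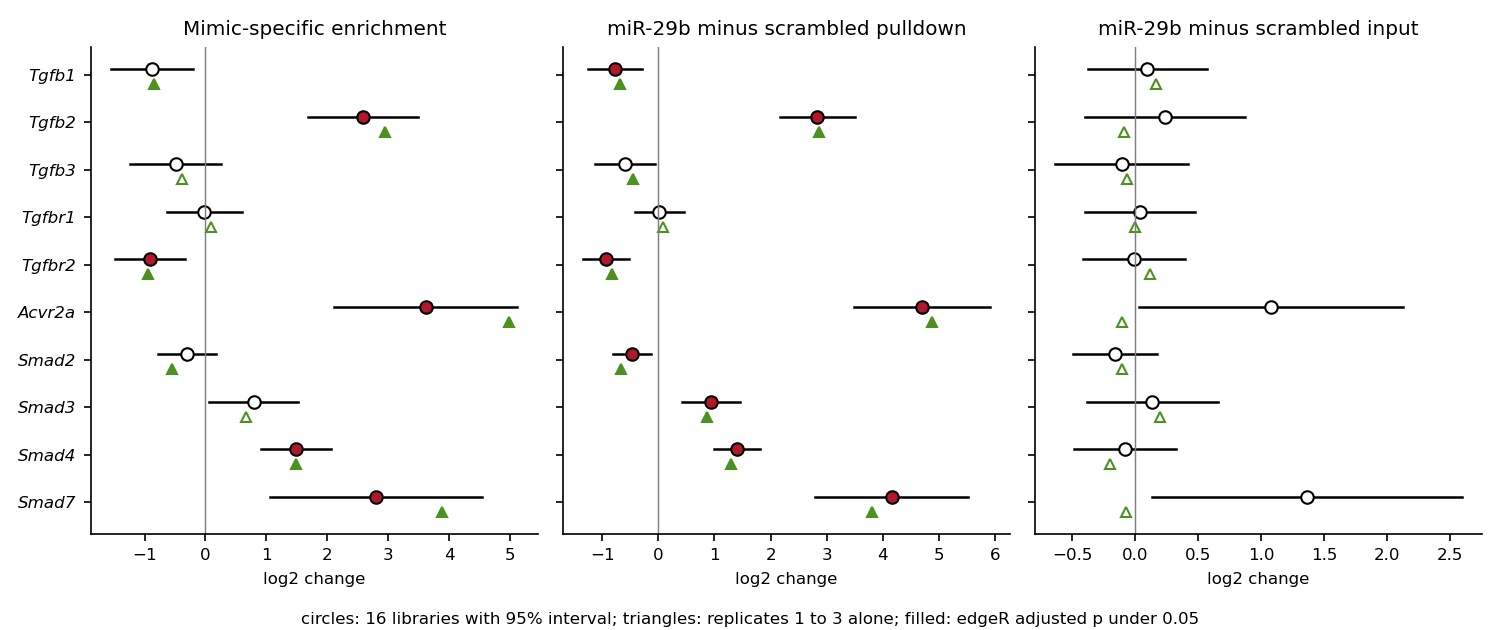
Log2 change of each gene in the mimic-specific comparison, between miR-29b and scrambled pulldowns, and between miR-29b and scrambled inputs; circles with bars are the fit of 16 libraries with its 95% interval, triangles the fit of replicates 1 to 3, and filled symbols passed at an edgeR adjusted p under 0.05. Acvr2a, Smad7, Tgfb2 and Smad4 lie right of 0 in the first 2 panels, and no input value is filled.

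Of the Smads, Smad7 and Smad4 rose in the mimic-specific comparison, and Smad3 and Smad2 did not pass. Smad7 (ENSMUSG00000025880; chromosome 18, bases 75367365 to 75395935, GRCm38), the inhibitory Smad, had 102.5, 129.5, 115.1 and 244.8 CPM in the miR-29b pulldown, against 6.95, 8.35, 9.11 and 8.52 CPM in the scrambled pulldown. Inputs held 6.65, 6.37, 6.68 and 54.1 CPM with miR-29b and 5.96, 7.99, 6.56 and 8.39 CPM with the scrambled mimic. All miR-29b pulldown libraries were above all others, and replicate 4 was the highest library of both miR-29b groups. In the inputs that replicate was at 6.45 times the highest of the other 7.

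Smad7 rose 6.95-fold in the mimic-specific comparison (log2 2.80 ± 0.82 SE, edgeR adjusted p = 0.0194) and 17.9-fold between pulldowns (log2 4.16 ± 0.64 SE, edgeR adjusted p = 7.41e-05). With the miR-29b input replicate 4 left out, the mimic-specific change was 20.7-fold (log2 4.37, edgeR adjusted p = 3.26e-07), and in replicates 1 to 3 it was 14.7-fold (log2 3.88, edgeR adjusted p = 6.36e-08). With replicates 1, 2 and 4 it was 2.71 on the log2 scale and did not pass (edgeR adjusted p = 0.11). The pulldown stood at 17.6 times its input between the means of replicates 1 to 3 and at 4.52 times in replicate 4.

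Smad4 (ENSMUSG00000024515; chromosome 18, bases 73634790 to 73703791, GRCm38), the partner that all receptor-activated Smads share, had 120, 135, 127 and 178 CPM in the miR-29b pulldown, against 33.3, 63.1, 59.1 and 56.4 CPM in the scrambled pulldown. Its inputs lay close together, at 60.65, 56.33, 57.08 and 77.4 CPM with miR-29b and 62.25, 69.51, 65.82 and 68.85 CPM with the scrambled mimic. The miR-29b pulldown thus stood at 2.23 times its input and the scrambled pulldown at 0.795 times. Smad4 rose 2.80-fold after correction for input (log2 1.48 ± 0.27 SE, edgeR adjusted p = 0.000834). The rise was 2.64-fold between pulldowns (log2 1.40 ± 0.19 SE, edgeR adjusted p = 2.63e-05). Of the 5 genes called in the mimic-specific comparison, Smad4 and Acvr2a passed under all 10 other settings and all 16 left-out libraries.

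Smad3 (ENSMUSG00000032402; chromosome 9, bases 63646766 to 63757994, GRCm38), a receptor-activated Smad, had 8.60, 19.0, 15.1 and 17.0 CPM in the miR-29b pulldown, against 5.59, 8.52, 8.95 and 7.98 CPM in the scrambled pulldown. Replicate 1 of the miR-29b pulldown was low and fell within the scrambled range. Inputs spanned 3.97 to 5.61 CPM with miR-29b and 3.47 to 5.71 CPM with the scrambled mimic. Smad3 rose 1.91-fold between pulldowns (log2 0.93 ± 0.24 SE, edgeR adjusted p = 0.00502). With the 10 libraries that call ended (log2 1.06, edgeR adjusted p = 0.0828). After correction for input its log2 value was 0.79 ± 0.34 (SE, edgeR adjusted p = 0.103; 95% interval 0.07 to 1.52), and it passed without replicate 1 of the miR-29b pulldown (log2 0.99, edgeR adjusted p = 0.0226).

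Smad2 (ENSMUSG00000024563; chromosome 18, bases 76241090 to 76311748, GRCm38), the other receptor-activated Smad of this pathway, had 10.2, 8.84, 9.87 and 14.7 CPM in the miR-29b pulldown, against 13.1, 17.1, 15.1 and 14.6 CPM in the scrambled pulldown. Replicates 1 to 3 of the miR-29b pulldown lay below every scrambled library and replicate 4 within their range. Inputs spanned 13.6 to 15.5 CPM with miR-29b and 14.7 to 19.1 CPM with the scrambled mimic. Smad2 fell by 0.46 ± 0.16 on the log2 scale between pulldowns (SE, edgeR adjusted p = 0.0259). The call depended on single libraries: it held in 5 of 16 fits that each left out 1 library (replicate 4 of any group, or replicate 1 of the scrambled pulldown), with an edgeR adjusted p of up to 0.0842 in the others, and it ended under 4 of 11 other settings. These were the authors' totals (log2 −0.16, edgeR adjusted p = 0.614), replicates 1, 2 and 4 (edgeR adjusted p = 0.201), the 10 libraries (edgeR adjusted p = 0.304) and a fit of the compared groups alone (edgeR adjusted p = 0.0765). The mimic-specific log2 value was −0.30 ± 0.22 (SE, edgeR adjusted p = 0.352), and −0.55 in replicates 1 to 3, where it passed (edgeR adjusted p = 0.0145).

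In the inputs no gene of the 10 differed between mimics at an edgeR adjusted p under 0.05, where 0.0542% of all genes were higher. Smad7 and Acvr2a, 2 of the 10, were higher at an unadjusted p under 0.05, as were 3.08% of all genes, and DESeq2 also called 0 of the 10. Smad7 had a log2 value of 1.36 ± 0.58 and Acvr2a of 1.08 ± 0.49 (SE, edgeR adjusted p = 0.9999 for both). With the miR-29b input replicate 4 left out, these were −0.18 and 0.02. The other 8 genes lay between −0.16 and 0.24, and no gene of the 10 had inputs without overlap, as 2.6% of all genes had upward and 2.18% downward. In such bulk libraries of 1 line, a change in all cells and a change in part of the cells cannot be told apart.

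The authors' deposited score, called PE in their tables, ranked the same genes at the top. It is computed from the same libraries as the tests above and is not independent of them. Recomputed from the deposited CPM, it equals the CPM of the miR-29b pulldown minus the mean CPM of both inputs, divided by the CPM of the scrambled pulldown, for all 13534 genes in each of the 4 replicates (relative tolerance 0.0001). Genes scoring above 4 in all 4 replicates carry the authors' mark as hits, 567 genes or 4.19%, and 3 of the 10 did. In the authors' deposited table Acvr2a scored 36.1, 38.5, 31.9 and 18.1 in replicates 1 to 4, Smad7 22.8, 17.1, 13.5 and 31.3, and Tgfb2 7.67, 8.91, 7.32 and 7.37. Replicate 4 was thus lowest for Acvr2a and highest for Smad7.

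Smad4, which rose in both tests, scored 3.11, 1.57, 1.44 and 2.71 in the authors' deposited table and stayed below 4 in all replicates. Smad3 scored between 1.39 and 2.18 there. Tgfb1 scored −3.17, −2.21, −2.34 and −0.865 in the authors' deposited table, with its miR-29b pulldown under its input in each replicate. For reference, the reported miR-29 target Mcl1, an anti-apoptotic gene, scored between 31.3 and 45.0 in that authors' deposited table, the collagen gene Col1a1 between 11.98 and 17.06, Dnmt3a between 6.85 and 17.6 and Tdg between 7.07 and 15.3. Their mimic-specific log2 changes were 4.18 for Mcl1, 2.74 for Col1a1, 2.87 for Dnmt3a and 2.71 for Tdg, so that Acvr2a lay between Mcl1 and the other reported targets. The same authors' deposited table marks predicted miR-29 sites for 509 genes, among them 199 of the 567 hits (35.1%), Mcl1, Dnmt3a and Tdg. It marks none for the 10 genes here, nor for Col1a1.

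**Figure D3:**
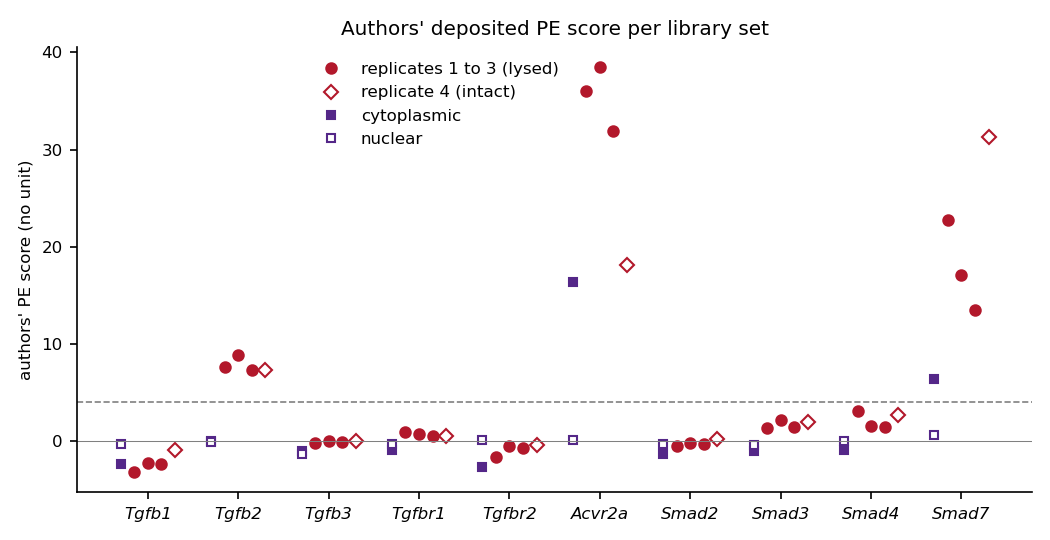
The authors' deposited PE score (no unit) of each gene in replicates 1 to 3 (circles), replicate 4 (open diamonds) and the cytoplasmic and nuclear sets (filled and open squares), with a dashed line at 4. Acvr2a, Smad7 and Tgfb2 lie above the line in all 4 whole-cell replicates, and only Acvr2a and Smad7 do so in the cytoplasmic set, at 16.4 and 6.41.

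The cell fractions, with 1 library per fraction, mimic and step and therefore no test, showed the recovery of Acvr2a and Smad7 in the cytoplasm. Acvr2a had 451 CPM (95% Poisson interval 436 to 465, which covers counting error only) in the cytoplasmic miR-29b pulldown, against 29.6 CPM (24.5 to 35.6) in the scrambled one. The cytoplasmic inputs held 75.1 CPM with miR-29b and 76.3 CPM with the scrambled mimic. In the nucleus the same pulldowns held 96.8 CPM (90.4 to 104) and 68.4 CPM (62.5 to 74.6), over inputs of 83.5 and 80.0 CPM. The log2 ratio of miR-29b to scrambled pulldown for Acvr2a was thus 3.91 in the cytoplasm, above 99.9% of 11568 genes, and 0.50 in the nucleus, above 92.3%. The cytoplasmic scrambled pulldown of Acvr2a lay below its input, where the whole-cell one averaged 1.45 times its input. That library enters every cytoplasmic ratio between pulldowns. Its listed counts were 48.7% of the authors' total, against 78.4% to 78.9% in the other cytoplasmic libraries. The inputs of Acvr2a also stood higher than in whole cells, where they held 14.1 to 23.1 CPM but for 106 CPM in miR-29b replicate 4.

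Smad7 had 69.9 CPM (64.4 to 75.8) in the cytoplasmic miR-29b pulldown and 11.3 CPM (8.24 to 15.2) in the scrambled one, with inputs of 13.9 CPM with miR-29b and 11.3 CPM with the scrambled mimic. The nuclear pulldowns held 35.3 CPM (31.4 to 39.5) with miR-29b and 27.6 CPM (24.0 to 31.7) with the scrambled mimic. Its log2 ratio between pulldowns was 2.58 in the cytoplasm and 0.35 in the nucleus. Of the 10 genes, Acvr2a and Smad7 were the 2 past 2-fold upward between cytoplasmic pulldowns, where 20.3% of all genes were, and none was past 2-fold in either direction between nuclear pulldowns, where 1.26% were higher and 1.96% lower.

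Tgfb2, high in the whole-cell miR-29b pulldowns, was not higher in either fraction. Its cytoplasmic pulldowns held 5.50 CPM (4.03 to 7.33) with miR-29b and 5.93 CPM (3.76 to 8.90) with the scrambled mimic, from 46 and 23 counts, and its nuclear ones 4.15 CPM (2.91 to 5.75) and 4.22 CPM (2.87 to 5.99). The log2 ratio was −0.10 in the cytoplasm, with counting limits of −0.82 and 0.62, where the whole-cell libraries gave 2.83. No replicate bears on this gap between the fraction libraries and the whole-cell libraries.

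Smad4 had 85.1 CPM (79.0 to 91.6) in the cytoplasmic miR-29b pulldown and 48.7 CPM (42.0 to 56.2) in the scrambled one, a log2 ratio of 0.80, beside 0.07 in the nucleus. Its cytoplasmic inputs held 79.15 CPM with miR-29b and 88.03 CPM with the scrambled mimic. The miR-29b pulldown thus lay near its input, while the scrambled pulldown lay below its own. The authors' deposited PE score of Smad4 in the cytoplasmic set was −0.849. Tgfb1 had 9.32 CPM (7.37 to 11.6) in the cytoplasmic miR-29b pulldown, against 32.2 CPM (26.8 to 38.4) in the scrambled one. At a log2 ratio of −1.74 it was the 1 gene of the 10 past 2-fold downward there, where 16.9% of all genes were.

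**Figure D4:**
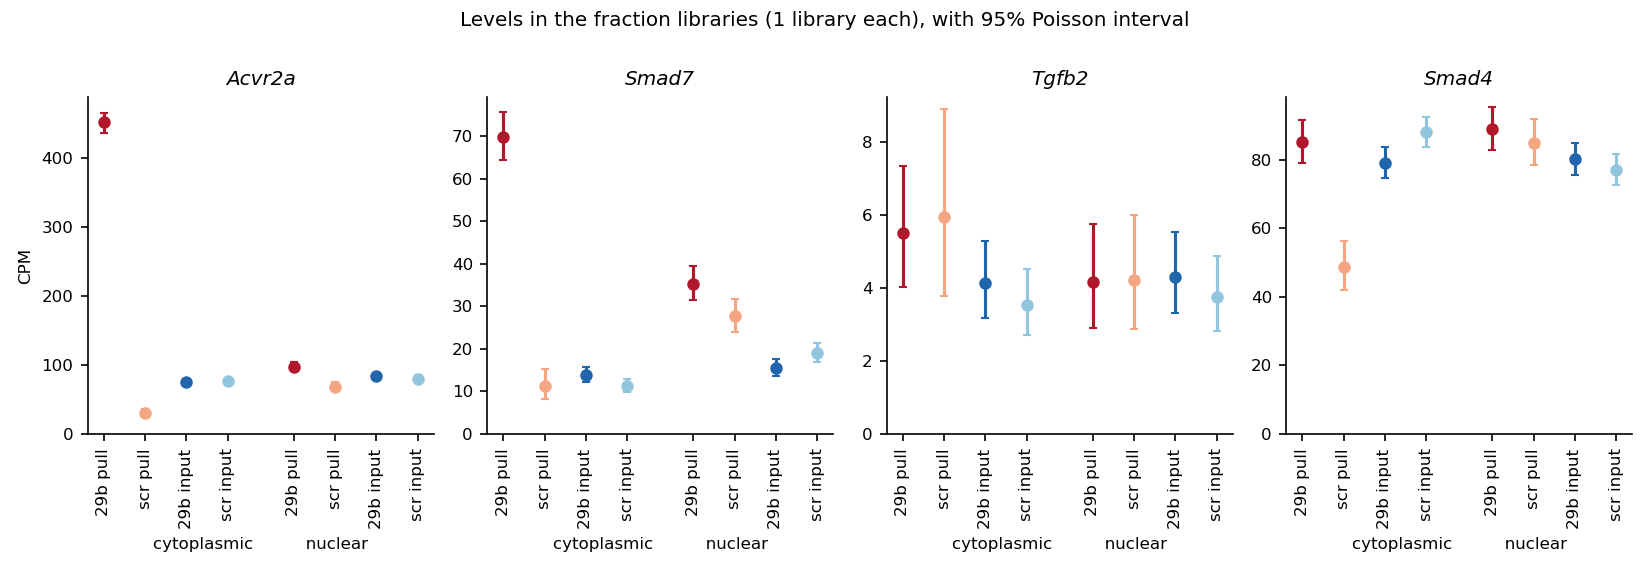
Levels of Acvr2a, Smad7, Tgfb2 and Smad4 in the 8 fraction libraries, in CPM on linear axes that differ between panels, with 1 library per point and 95% Poisson intervals. Acvr2a reads 451 CPM in the cytoplasmic miR-29b pulldown and 29.6 to 96.8 CPM in the other 7 libraries, while the intervals of Tgfb2 overlap throughout.

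The inputs of the fractions also placed each mRNA relative to other genes. After TMM scaling the median nuclear over cytoplasmic log2 ratio of all genes was 0.0135 with miR-29b and 0.00923 with the scrambled mimic. The ratios thus do not give the share of an mRNA in each compartment. Tgfb1 and Tgfbr2 were the most cytoplasmic of the 10, with nuclear over cytoplasmic log2 ratios of −2.18 and −1.98 in the miR-29b inputs and −1.86 and −1.84 in the scrambled inputs. They were the 2 genes of the 10 past 2-fold downward in these inputs, where 25.9% of all genes were with miR-29b and 24.0% with the scrambled mimic. None of the 10 was past 2-fold upward, where 25.1% and 23.8% of all genes were. Smad3 was the most nuclear with miR-29b, at 0.86, and stood at 0.59 with the scrambled mimic. Smad7 stood at 0.16 with miR-29b and highest of the 10 with the scrambled mimic, at 0.73, and the other genes lay between −0.21 and 0.31. Library totals without TMM moved all these ratios up, for Smad3 to 1.54 and 1.14 and for Tgfb1 to −1.49 and −1.31. With the scrambled mimic they turned Tgfb3, Tgfbr1, Smad2 and Smad4 to 0.33, 0.52, 0.40 and 0.38, so that these genes near 0 had no settled direction.

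Other receptors, Smads and regulators of the superfamily were set beside the 10 genes. Of 75 symbols on 6 lists of pathway genes, 54 were in the whole-cell table and 50 were tested. In the mimic-specific comparison 13 of the 50 rose, beside 17.0% of all genes, 5 fell, beside 9.21%, and 32 did not pass, with a median log2 change of 0.19, beside −0.10 for all genes. The authors' table marks none of the 54 as a hit.

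Of 7 other receptors 3 rose, beside 17.0% of all genes, and none of the lists was tested as a set. Bmpr1a, a type I receptor for bone morphogenetic proteins, was at 1.71 ± 0.29 on the log2 scale (SE, edgeR adjusted p = 0.00040). Tgfbr3, the co-receptor betaglycan, was at 1.29 ± 0.28 and Acvr2b, the activin type IIB receptor, at 1.32 ± 0.39 (SE, edgeR adjusted p = 0.00267 and 0.0208). Of 4 other Smads 3 rose, beside the same 17.0% of all genes. Smad1 and Smad5, which carry the signal of bone morphogenetic proteins, were at 1.38 ± 0.21 and 1.55 ± 0.39, and the inhibitory Smad6 at 1.24 ± 0.42 (SE, edgeR adjusted p = 0.000185, 0.00735 and 0.0413). Smad6 kept its call in 4 of 16 fits that left out 1 library (replicate 4 of the miR-29b input, replicate 1 of the scrambled input, replicate 1 of the miR-29b pulldown or replicate 2 of the scrambled pulldown), with an edgeR adjusted p of up to 0.0819 in the others.

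Of 15 genes that store, release or block the ligands, 5 fell, beside 9.21% of all genes, and 2 rose, beside 17.0%. The latent TGF-beta binding proteins Ltbp3, Ltbp1 and Ltbp4, which hold the ligand in the matrix, fell by 1.27 ± 0.28, 1.07 ± 0.31 and 2.32 ± 0.70 on the log2 scale (SE, edgeR adjusted p = 0.00329, 0.0167 and 0.0227). Itgb5, an integrin subunit, and Bgn, the matrix proteoglycan biglycan, fell by 0.73 ± 0.23 and 0.94 ± 0.30 (SE, edgeR adjusted p = 0.0299 and 0.0316), and are named after their values were seen. Fstl3, which binds and blocks activins, rose by 0.95 ± 0.16, and Lrrc32, which anchors latent TGF-beta at the cell surface, by 1.84 ± 0.41 (SE, edgeR adjusted p = 0.000557 and 0.00332). Ltbp4 did not pass without replicate 3 of the miR-29b input or replicates 2 or 3 of the scrambled input (edgeR adjusted p up to 0.0581). Itgb5 kept its call in 8 and Bgn in 5 of 16 fits that left out 1 library, with an edgeR adjusted p of up to 0.0736 for Itgb5 and 0.0732 for Bgn.

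Of 13 intracellular regulators 3 rose and of 8 transcriptional targets 2 rose, each beside 17.0% of all genes. The regulators were Ski, a corepressor of Smads, at 1.75 ± 0.37, Smurf2, a ubiquitin ligase for Smads and receptors, at 1.62 ± 0.35, and Tab1, an activator of the kinase TAK1, at 1.39 ± 0.31 (SE, edgeR adjusted p = 0.00246, 0.00305 and 0.00361). The targets were Id3 and Id1, inhibitors of helix-loop-helix factors, at 1.90 ± 0.44 and 0.88 ± 0.29 (SE, edgeR adjusted p = 0.00479 and 0.0351). Id1 kept its call in 8 of 16 fits that left out 1 library (edgeR adjusted p up to 0.073). The 3 other ligands tested had log2 values of 0.49 for Inhba, −0.80 for Gdf11 and −2.19 for Gdf15, which did not pass (edgeR adjusted p = 0.216, 0.599 and 0.188). Upper-quartile factors ended the calls of Acvr2b, Smad6 and Id1 (edgeR adjusted p = 0.0669, 0.0937 and 0.148), and the authors' totals those of Ltbp3, Ltbp1, Itgb5 and Bgn (edgeR adjusted p up to 0.408). With replicates 1, 2 and 4 or with the 10 libraries most of the calls on these lists ended (edgeR adjusted p up to 0.379), while Bmpr1a and Ski passed under all 10 other settings and all 16 left-out libraries.

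**Figure D5:**
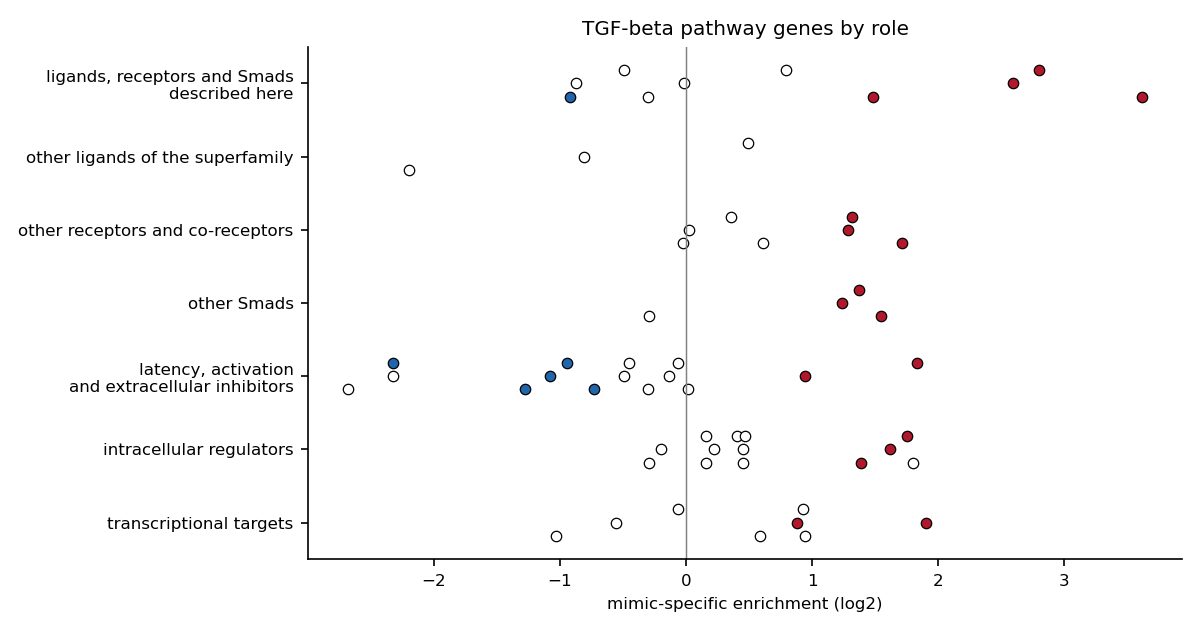
Mimic-specific log2 change of the 10 genes and of 50 other pathway genes in 6 lists by role, with filled red symbols for genes that rose and filled blue for genes that fell at an edgeR adjusted p under 0.05. The 10 genes reach 3.62 (Acvr2a), the highest other gene that passed is Id3 at 1.90, and 5 of the genes filled in blue are in the list of latency, activation and extracellular inhibitors.

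The genes whose pattern was most like that of a called member were sought by Pearson correlation of log2 CPM over the 16 libraries, which share depth, mimic and step, as a description. For Acvr2a these were Tcf4, Col5a2 and Ap1g1 (r = 0.996, 0.996 and 0.995), and for Smad7 they were Taf5, 4931406P16Rik and Zfp322a (r = 0.994 for each). For Tgfb2 they were Col4a1, Nop2 and Trim25 (r = 0.986, 0.98 and 0.98), the first a collagen of basement membranes. For Smad4 they were Bmpr1a, Lasp1 and Slc39a9 (r = 0.991, 0.982 and 0.979), the first also on the receptor list. Tgfbr2 was most like Tada3, Ppp5c and Bysl (r = 0.979, 0.974 and 0.969).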

How the data were processed

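RNA of 16 whole-cell and 8 fraction libraries was counted per gene by the authors. The submitters' processing notes name STAR 2.3.0 and mm10. How reads were counted, on which strand, and how genes were filtered is not given in the sources used here, so reads of antisense or overlapping genes cannot be told apart. The deposited tables hold raw whole-number counts. CPM values here are counts scaled to library size with TMM factors, and not the CPM deposited by the authors, which entered only the check of their score. The authors' deposited PE score was copied as given. The table deposited as nuclear held the same bytes as the cytoplasmic one, so 1 table served for both fractions. The listed counts were 48.9% to 87.3% of the authors' library totals in whole cells and 37.4% to 78.9% in the fractions.

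The whole-cell table had 14052 lines, of which 518 repeated a gene with the same counts and were dropped. Counts of 12915 of 13534 genes (filterByExpr) entered edgeR 4.0.16 (R 4.3.3), by quasi-likelihood after TMM scaling, in 1 model of 4 group means, two-sided, with Benjamini-Hochberg adjustment within each of 3 comparisons and a threshold of 0.05. The common dispersion was 0.106. Fractions were described with log2 ratios (TMM, prior count 5, at least 20 counts in all) and exact 95% Poisson intervals, which cover counting error only. The pipeline was tested on simulated data. Coordinates span whole genes in RefSeq's table for GRCm38.

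The 10 genes, the lists and the tests were chosen with earlier results of these data known. All 10 are described. Of each pathway list the called genes are named, at most 5 by smallest p, and for each called member the 3 genes most like it. A gene of the list of transcriptional targets is not reported here and is left out of the list's counts. Alternatives were RLE and upper-quartile factors, the authors' totals, DESeq2 1.42.0, 2 other filters, the replicate number as a block, subsets of replicates, and leaving out each library.

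To see whether replicate numbers pair libraries, deviations from group means were correlated between libraries of 1 number, with 0.1 as the limit. The inputs passed (0.506 to 0.717), as did the miR-29b pulldown with its input (0.379 to 0.7). The pulldowns (−0.0687 to 0.365) and the scrambled pulldown with its input (−0.0544 to 0.314) did not. Replicate 4 stood apart in both inputs, which can by itself raise the correlations at every number. Libraries of unlike number were not correlated for comparison. Passing the limit therefore does not show that the numbers pair libraries.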

Additional observations from a re-analysis of the deposited data

Results flagged for a closer look

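Within groups of 4 libraries, a library was singled out where its gap to the nearest other one, over the group's range, exceeded Dixon's 95% value. Of 40 groups examined 6 had such a library, and all 6 were replicate 4 of an input. The groups were genes measured in the same libraries and so were not independent. Replicate 4 also stands for the second procedure and was not a like repeat of replicates 1 to 3. The 6 of 40 can therefore not be set against the 1 in 20 that chance gives for independent groups of like libraries. In the miR-29b input, replicate 4 held 54.14 CPM of Smad7, above 6.37 to 6.68 CPM in replicates 1 to 3, and 106.3 CPM of Acvr2a, above 18.1 to 23.1 CPM. In the same library Tgfbr2 was low, at 21.57 CPM, below 37.1 to 38.8 CPM. In the scrambled input, replicate 4 was high for Smad3, at 5.706 CPM, and for Tgfbr1, at 8.914 CPM, and low for Acvr2a, at 14.1 CPM.

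The ratio of miR-29b to scrambled input went opposite ways in replicate 4 and in replicates 1 to 3 for 4 genes, and these differences were not tested. Tgfb1 was at 0.786 in replicate 4, against 1.08 to 1.17 in replicates 1 to 3. Tgfbr2 was at 0.66, against 1.02 to 1.2, and Smad3 at 0.982, against 1.09 to 1.25. Smad4 was at 1.12, against 0.81 to 0.974.

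Between fractions, the mimic-specific log2 ratio had opposite signs for 4 genes, with 1 library per group and no test. Tgfbr1 was at 0.511 in the cytoplasm and −0.61 in the nucleus, and Smad2 at 0.35 and −0.407. Smad3 was at 0.148 in the cytoplasm and −0.112 in the nucleus, and Tgfbr2 at −0.562 and 0.204. The counting limits included 0 in both fractions for Smad3, in the cytoplasm for Tgfbr1 (−0.0487 to 1.07) and Smad2 (−0.145 to 0.845), and in the nucleus for Tgfbr2 (−0.306 to 0.714). For none of the 4 were the signs in both fractions thus settled beyond counting error. The gap between the fractions was not itself set against counting error.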

How the results depend on the processing

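Of 800 values of the 10 genes under alternatives, 758 kept their direction or stayed without a call and kept their side of the threshold, 24 lost a call, 18 gained one, and 0 turned a called direction. The 758 include all input values, which had no call under any setting, so the share kept overstates how stable the calls were. In the mimic-specific comparison the 4 genes called higher became 3 with replicates 1, 2 and 4 or with the 10 libraries, and 4 to 5 without single libraries. The gene count called lower was 2 with RLE factors, upper-quartile factors, DESeq2, a filter of 2 CPM in 4 libraries or the replicate block, 3 in replicates 1 to 3, and 0 with the authors' totals, replicates 1, 2 and 4 or the 10 libraries. It was 1 to 2 without single libraries (2 without replicate 4 of the miR-29b input or replicate 1 of the miR-29b pulldown). The cause was not tested. Counts over all genes were 1004 higher and 233 lower with replicates 1, 2 and 4, 1273 and 180 with the 10 libraries, and 2457 lower in replicates 1 to 3. They were 2400 lower with upper-quartile factors, 285 with the authors' totals and 1931 with the replicate block. Without single libraries they were 1925 to 2740 higher and 783 to 1449 lower, lowest without replicate 3 of the scrambled input.

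Between pulldowns the 3 genes called lower became 4 with RLE or upper-quartile factors, DESeq2, the filter of 2 CPM, the replicate block or replicates 1 to 3, 2 with the 10 libraries, 1 with replicates 1, 2 and 4 and 0 with the authors' totals, and 2 to 4 without single libraries. Over all genes 2086 were higher and 955 lower with the 10 libraries. The lower count was 4333 with upper-quartile factors, 1094 with the authors' totals and 1463 with replicates 1, 2 and 4, and 2271 to 2914 without single libraries. Between inputs 0 of the 10 genes were called in all 11 other settings and without any single library. Over all genes 7 higher became 1 with the authors' totals, 0 with replicates 1, 2 and 4, the 10 libraries or only the groups compared, 32 with DESeq2 and 82 in replicates 1 to 3. The lower count was 13 with DESeq2, 1 with the replicate block and 95 in replicates 1 to 3. Without single libraries it was 1 to 11 higher and 0 to 2 lower, with 1 to 3 higher when any of replicates 1 to 3 of either input was left out and 11 when replicate 4 of the miR-29b pulldown was. With the replicate block between inputs, 10 genes were higher and 1 lower, none of them among the 10 described. Whether the numbers pair the inputs was not settled. In the other comparisons the miR-29b pulldown and its input passed the limit for pairing, which does not settle it either. Not every scrambled pulldown passed with its input or with the miR-29b pulldown of its number. There the block gave 4 higher and 2 lower of the 10 genes corrected for input, where Tgfb1 passed (log2 −0.88, edgeR adjusted p = 0.0132), and 5 and 4 between pulldowns, where Tgfb3 passed (log2 −0.66, edgeR adjusted p = 0.00461).

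The fractions have 1 library per group and so no test, and Tgfb2 rests on 23 to 64 counts per library there. The intact procedure also has 1 library per group.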
